A study of Mus musculus with 25 samples.

Results

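The cytosolic ribosomal protein genes encode the protein part of the ribosomes that translate nuclear-encoded mRNA in the cytoplasm. They were taken as every gene of the abundance table with a mean of at least 1 FPKM (a level corrected for transcript length and library size) and a symbol of the Rpl, Rps, Rplp or Rpsa series without a retrocopy or paralog suffix. This gave 77 of 23284 genes, and no gene that matched the symbol patterns fell under the 1 FPKM limit. Of the 77, 46 encode proteins of the large subunit and 31 proteins of the small subunit.

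A ribosome holds each of these proteins in a nearly fixed ratio, so their genes are usually expressed together and at high level in every growing or secreting cell. Most of the mRNAs begin with a 5′ terminal oligopyrimidine (TOP) tract, through which their translation follows nutrient and growth signals. The short, intron-spliced mRNAs have also been copied back into the mouse genome many times. These retrocopies, or processed pseudogenes, lack introns and often remain nearly identical to the parent coding sequence, so that a short read from the parent can fit the copy as well as the gene.

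RNA came from whole aortas of male C57/BL6J mice that lacked either Apoe alone (EKO) or both Apoe and Apoa1 (DKO), so no group carried apolipoprotein E. From 8 weeks of age, mice of each genotype received a Western diet (WD) or standard laboratory chow for 22 or 6 weeks. The 8 groups thus combine genotype, diet and time, and mice sampled at 22 weeks of feeding were also older than those sampled at 6 weeks. Of the 25 libraries, 4 came from DKO on chow at 6 weeks, and the other 7 groups had 3 each. The labels mark all EKO libraries, and no DKO library, as re-analysed from previously submitted samples, so any difference in processing between them cannot be told apart from genotype. The question put to these genes was whether their level differed between genotypes, diets and times, and how far it moved with the retrocopies.

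One library, EKO WD 22 weeks replicate 2, is listed at 0 for 68.6% of the 12797 genes averaging 1 FPKM or more, among them 55 of the 77 ribosomal protein genes. Those zeros were taken as missing, which leaves 2 libraries in that group for the 55 genes and 3 for the other 22. Among the 77 genes, the 22 with a value there lie on chromosomes 1 and 10 to 15, on chromosome 15 no further than Rpl8 (start 76904078). The 55 at 0 lie on chromosome 15 from Rpl3 (start 80077791), or on chromosomes 16 to 18, 2 to 9 and X. Outside the 77, the pseudogene Gm15772 of chromosome 5 had a value. Why the zeros fall there was not tested. The transcripts of Apoe (3.75 to 20.7 FPKM in EKO, 2.97 to 10.7 FPKM in DKO) and Apoa1 (0 to 1.97 FPKM in EKO, 0.135 to 1.08 FPKM in DKO) overlapped between genotypes and give no check of the labels. The smooth muscle, endothelial and macrophage markers of an aorta were present in all groups. The tissue was sampled in bulk, so fewer cells of a type and less RNA per cell cannot be told apart, and the p-values measure the spread between these libraries.

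The ribosomal protein genes took up far more of the aortic transcript pool in EKO mice at 22 weeks than in any other group. Their summed level was 33488 to 39548 FPKM in the 5 complete EKO libraries of 22 weeks, against 14423 to 20350 FPKM in the 19 other libraries. At 22 weeks of WD the sum averaged 34509 ± 1214 FPKM in EKO (n = 2, SD) and 16691 ± 1359 FPKM in DKO (n = 3, SD). On chow it averaged 36936 ± 3115 FPKM in EKO and 16024 ± 712 FPKM in DKO (SD, n = 3 each) at that time. At 6 weeks the EKO means were 18092 ± 2496 FPKM on WD and 16161 ± 522 FPKM on chow (SD, n = 3 each). Single DKO libraries ran from 14423 to 18202 FPKM. The EKO libraries on WD at 6 weeks were at 20350, 15412 and 18514 FPKM, so some of them lay above that range. The genes made up 6.01 to 7.89% of all FPKM in the EKO libraries of 22 weeks and 3.67 to 5.33% in the 19 others. The total of all genes was itself larger in those EKO libraries, at 448239 to 556933 FPKM against 360421 to 415555 FPKM, while the median of the other tested genes was 8.46 to 9.34 FPKM against 7.68 to 8.46 FPKM. Over the 22 genes with a value in every library, which include the partial one, the sum was 8176 to 10657 FPKM in all 6 EKO libraries of 22 weeks and 3785 to 5465 FPKM in the others.

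**Figure D1:**
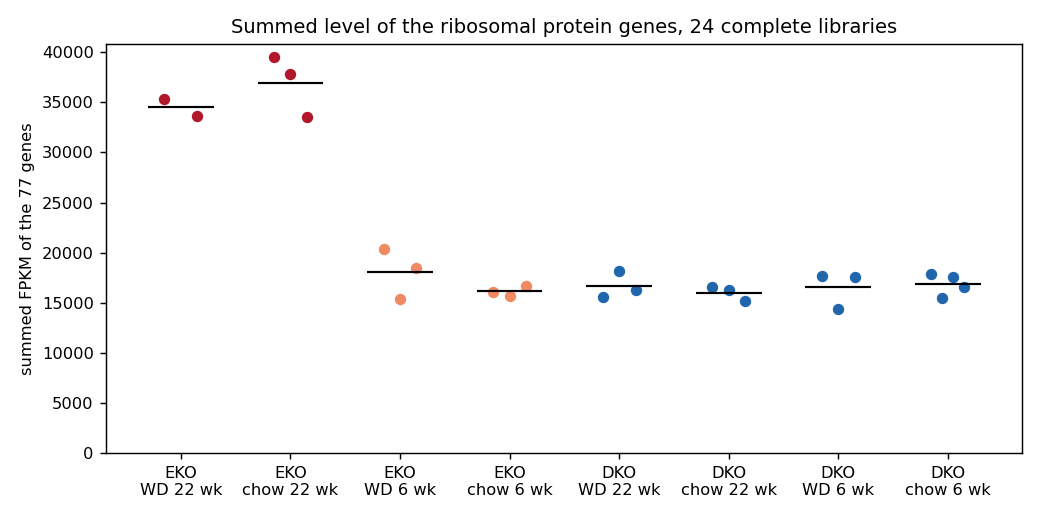
Summed level of the 77 ribosomal protein genes in FPKM (y axis, from 0) by group (x axis), with 1 point per complete library, the group mean as a bar, EKO at 22 weeks in red, EKO at 6 weeks in orange and DKO in blue. The 5 complete EKO libraries of 22 weeks lie at 33488 to 39548 FPKM, above all 19 other libraries.

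Across the single genes the pattern was as broad as the sum. In 67 of the 77, all EKO libraries of 22 weeks with a value stood above all 19 other libraries (3.32% of all tested genes did so), 1 gene stood below all of them (0.617% of all tested genes), and 9 overlapped. This is a description of levels, with no test. The mean over the EKO libraries of 22 weeks was a median of 2.02 times the mean over the 19 others. The ratio lay between 1.5 and 3 for 51 genes, above 3 for 14 and under 1.5 for 12. It ran from 0.0397 for Rpl34 to 69.8 for Rpl21. Among the 13 DKO libraries the same genes varied little, with a median coefficient of variation of 9.997% (5.96 to 49.7%), against 18.2% for the median tested gene.

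**Figure D2:**
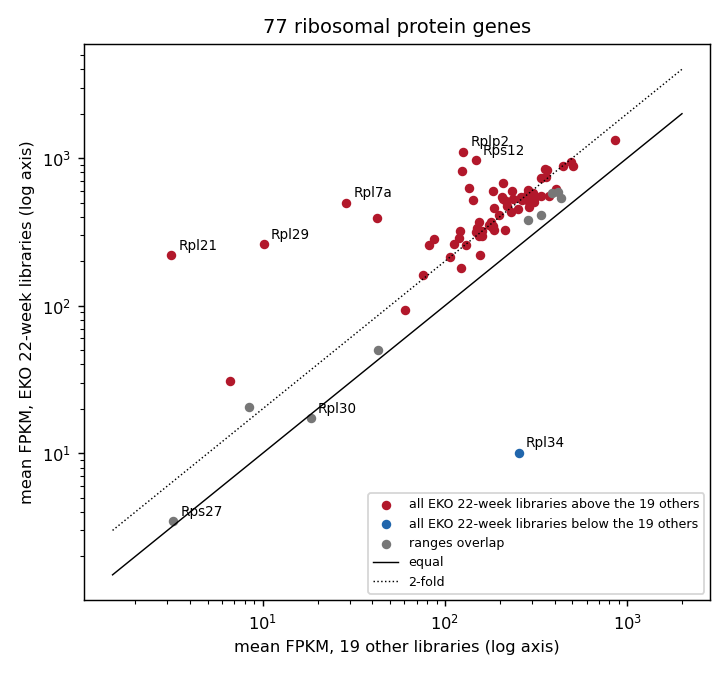
Mean FPKM of each of the 77 genes over the EKO libraries of 22 weeks (y axis) against its mean over the 19 other libraries (x axis), both on log axes, with lines for equal levels and for a 2-fold difference. Most genes follow the 2-fold line (median ratio 2.02), while Rpl21, Rpl29 and Rpl7a lie more than 10-fold above the line of equal levels and Rpl34 lies below it.

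Tests were made with limma on log2(FPKM + 1) over all 12797 genes, and a gene was called at a Benjamini-Hochberg adjusted p under 0.05. In EKO against DKO on WD at 22 weeks, 68 of the 77 genes were called higher and 1 lower, where 18.6% and 2.93% of all genes were called higher and lower (21.5% in either direction). Their median log2 fold change was 1.01, against 0.10 over all tested genes. On chow at 22 weeks, 70 were called higher and 1 lower, where 6.42% and 1.45% of all genes were (7.86% in either direction), with a median of 1.13 against 0.08. The groups did not overlap, with EKO higher, for 71 genes on WD, where 29.8% of all genes did so, and for 74 on chow, where 20.7% did. The large subunit genes had medians of 1.09 on WD and 1.18 on chow, and the small subunit genes of 0.96 and 1.06, and the difference between the subunits was not tested. Restricted to the 22 genes with a value in every library, 19 were called higher on WD (median 1.03) and 21 on chow (median 1.17). The comparisons on WD and on chow share no library.

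The same comparison at 6 weeks gave almost no calls. On WD 1 gene, Rpl29, was called higher in EKO than in DKO and none lower, where 0.086% and 0.0625% of all genes were called (median 0.11). On chow 1 was called higher, again Rpl29, and 1 lower, Rpl35, where 0.0625% and 0.0781% of all genes were called (median -0.04).

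**Figure D3:**
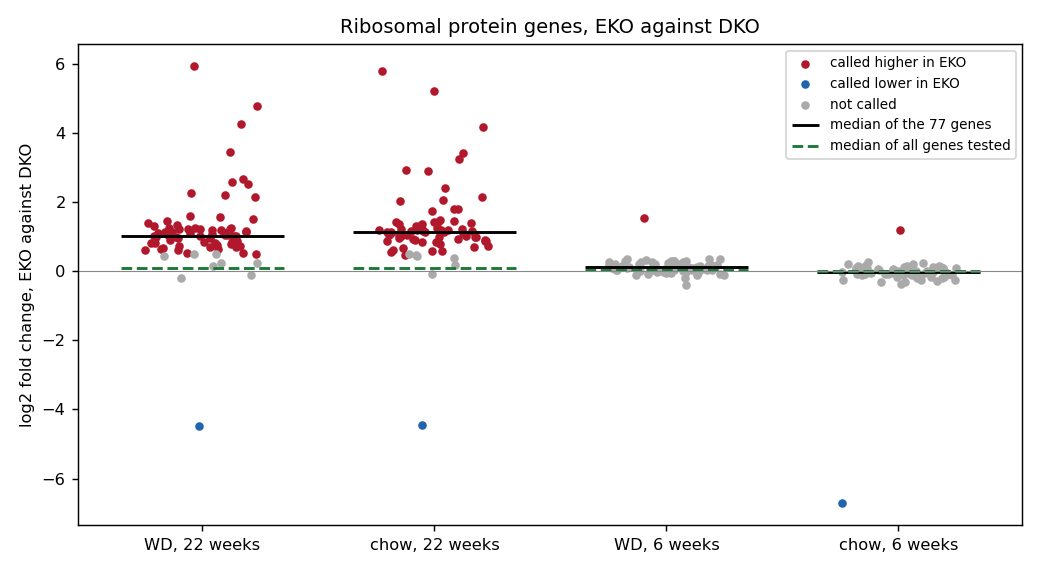
Log2 fold change of EKO against DKO for each of the 77 genes (y axis, on the log2(FPKM + 1) scale) in the 4 combinations of diet and time (x axis), coloured by the limma call, with medians of the 77 genes and of all tested genes as bars. The medians are 1.01 on WD and 1.13 on chow at 22 weeks, and 0.11 and -0.04 at 6 weeks.

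Within EKO, 22 against 6 weeks called 67 genes higher and 1 lower on WD (14.8% and 4.45% of all genes, median 0.89). On chow it called 69 higher and 1 lower (25.5% and 11.2% of all genes, median 1.09). Within DKO no gene of the 77 was called on WD (0.219% of all genes in either direction, median -0.01) or on chow (0.0234% of all genes higher, 0.0313% lower and 0.0547% in either direction, median -0.07) by limma, and 2 and 1 of them had an unadjusted p under 0.05. The difference between the genotypes in their change with time was itself called for 54 genes with a larger change in EKO and 1 with a smaller one on WD (7.74% and 1.24% of all genes, 8.98% in either direction, median 0.94). On chow it was called for 62 and 1 (3.14% and 0.742% of all genes, 3.88% in either direction, median 1.13). With the trend over transcript length removed from each library, it was called for 32 and 1 on chow (median 0.79) and for 36 and 1 on WD (median 0.83). Over all 12636 genes in that fit, it was called for 200 and 108 on chow and for 809 and 183 on WD. These EKO contrasts share their 22-week libraries with the genotype contrasts.

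Diet by itself moved few of the genes. In EKO at 22 weeks, WD against chow called none higher and 2 lower, Rplp2 and Rpl36 (10.4% and 9.17% of all genes). In EKO at 6 weeks it called Rpl35 higher and Rpl31 lower (0.172% and 0.164% of all genes, 0.336% in either direction). In DKO it called Rpl31 lower at 22 weeks (0.899% of all genes lower) and at 6 weeks (3.6% of all genes lower, 5.17% in either direction), with none higher (0.836% and 1.56% of all genes).

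By role, the P stalk, which recruits the GTPase factors of elongation, held both moderate and large differences. Rplp0, its base, was at 537 and 532 FPKM in EKO against 354, 327 and 285 FPKM in DKO on WD at 22 weeks, and at 664, 521 and 503 FPKM in EKO against 316, 306 and 301 FPKM in DKO on chow. The genotypes did not overlap on either diet, with log2 fold changes of 0.73 (SE 0.15, limma adjusted p = 0.0015) on WD and 0.86 (SE 0.14, adjusted p = 2.3e-04) on chow. Rplp1, with the highest mean of the 77 genes (954 FPKM), was at 1217 and 1280.4 FPKM in EKO against 861, 998.7 and 811 FPKM in DKO on WD. Its log2 fold changes were 0.49 (SE 0.19, limma adjusted p = 0.068) on WD, which did not pass, and 0.71 (SE 0.17, adjusted p = 0.011) on chow. Rplp2, its partner in the stalk, differed much more. It was at 804 and 717 FPKM in EKO against 121, 119 and 138 FPKM in DKO on WD, and at 1582, 1309.9 and 1129 FPKM in EKO against 132, 118 and 122 FPKM in DKO on chow. The log2 fold changes of Rplp2 were 2.59 (SE 0.15, limma adjusted p = 1.5e-10) and 3.41 (SE 0.13, adjusted p = 2.6e-13). Within EKO at 22 weeks Rplp2 was lower on WD than on chow, with a log2 fold change of -0.81 (SE 0.15, limma adjusted p = 0.0010). Rpl36 was the other member with such a diet difference. It had 447 and 396 FPKM on WD and 838, 673 and 639 FPKM on chow in EKO at 22 weeks, a log2 fold change of -0.76 (SE 0.15, limma adjusted p = 0.0022).

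Rpl3 lies close to the peptidyl transferase centre, where peptide bonds form. On WD at 22 weeks it averaged 389 ± 38.5 FPKM in EKO (SD, n = 2) and 168 ± 15.7 FPKM in DKO (SD, n = 3). On chow it averaged 359.5 ± 5.44 FPKM in EKO (SD, n = 3) and 168 ± 3.95 FPKM in DKO (SD, n = 3). The log2 fold changes of Rpl3 were 1.21 (SE 0.13, limma adjusted p = 1.4e-06) on WD and 1.09 (SE 0.11, adjusted p = 1.4e-06) on chow. Rpl39 lines the exit tunnel of the nascent chain and had log2 fold changes of 1.25 (SE 0.18, limma adjusted p = 4.2e-05) and 1.22 (SE 0.16, adjusted p = 2.1e-05). Rpl41 encodes one of the smallest proteins known. It had 808 ± 57.4 FPKM in EKO (SD, n = 3) and 489.6 ± 15.5 FPKM in DKO (SD, n = 3) on WD, and 1060.4 ± 120.5 FPKM in EKO (SD, n = 3) and 469 ± 49.7 FPKM in DKO (SD, n = 3) on chow. Both differences in Rpl41 passed, with 0.72 (SE 0.15, limma adjusted p = 0.0014) and 1.18 (SE 0.15, adjusted p = 1.1e-05).

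Rpl5 and Rpl11 form a particle with the 5S rRNA, and when not built into ribosomes they bind Mdm2 and so stabilise p53. Rpl11 averaged 561 ± 35.6 FPKM in EKO (SD, n = 2) and 307 ± 4.53 FPKM in DKO (SD, n = 3) on WD, and 596 ± 14.3 FPKM in EKO (SD, n = 3) and 298 ± 11.96 FPKM in DKO (SD, n = 3) on chow. Rpl5 averaged 194 ± 4.16 FPKM in EKO (SD, n = 2) and 113 ± 13.9 FPKM in DKO (SD, n = 3) on WD, and 171 ± 14.7 FPKM in EKO (SD, n = 3) and 114 ± 4.42 FPKM in DKO (SD, n = 3) on chow. Both genes were called higher in EKO on both diets. The log2 fold changes were 0.87 (SE 0.12, limma adjusted p = 3.4e-05) on WD and 1.0 (SE 0.11, adjusted p = 2.0e-06) on chow for Rpl11. They were 0.79 (SE 0.14, limma adjusted p = 4.6e-04) and 0.58 (SE 0.13, adjusted p = 0.0062) for Rpl5. With time in EKO on chow, Rpl11 passed, at 1.19 (SE 0.11, limma adjusted p = 1.7e-07), while Rpl5 did not, at 0.31 (SE 0.13, adjusted p = 0.064).

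In the small subunit, Rpsa, also known as a laminin receptor, had 306 and 344 FPKM in EKO against 177, 173 and 134 FPKM in DKO on WD, and 415, 365 and 324 FPKM in EKO against 166, 173 and 163 FPKM in DKO on chow. The genotypes did not overlap, with log2 fold changes of 1.01 (SE 0.15, limma adjusted p = 5.5e-05) on WD and 1.12 (SE 0.13, adjusted p = 6.1e-06) on chow. Rps6, the target of S6 kinase, had 0.68 (SE 0.13, limma adjusted p = 8.9e-04) on WD and 0.67 (SE 0.12, adjusted p = 8.4e-04) on chow. Rps27a, which is made as a fusion with ubiquitin, had 1.04 (SE 0.15, limma adjusted p = 3.6e-05) and 0.90 (SE 0.15, adjusted p = 3.0e-04). Rps4x, an X-linked gene, had 0.82 (SE 0.18, limma adjusted p = 0.0022) on WD and 0.51 (SE 0.16, adjusted p = 0.059) on chow, which did not pass. Rps3, at the mRNA entry site and with a known part in DNA repair, had 0.48 (SE 0.14, limma adjusted p = 0.020) and 0.46 (SE 0.13, adjusted p = 0.030). Rps15, one of the highest genes by mean (596 FPKM), was at 849.8, 807 and 762 FPKM in EKO against 478, 575 and 503 FPKM in DKO on WD, with the partial library inside the range of its group. Its log2 fold changes were 0.64 (SE 0.15, limma adjusted p = 0.0032) and 1.05 (SE 0.15, adjusted p = 3.7e-05). Rpl10 of the large subunit, which joins the ribosome late in assembly, was also among the highest (537 FPKM), with 1.29 (SE 0.18, limma adjusted p = 3.6e-05) and 0.97 (SE 0.16, adjusted p = 4.5e-04).

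A few genes differed far more than the rest. Rpl21 was at 241 and 206 FPKM in EKO against 2.05, 2.98 and 3.06 FPKM in DKO on WD at 22 weeks, and at 186, 244 and 218 FPKM in EKO against 3.09, 3.43 and 2.31 FPKM in DKO on chow. In EKO at 6 weeks Rpl21 was at 2.56 to 4.02 FPKM, near the DKO values. The log2 fold changes of Rpl21 were 5.93 (SE 0.16, limma adjusted p = 8.0e-16) on WD and 5.78 (SE 0.14, adjusted p = 2.2e-16) on chow. Rpl29, a heparin-binding protein, was at 255 and 251 FPKM in EKO against 7.56, 12.3 and 5.99 FPKM in DKO on WD, and at 291, 268 and 234 FPKM in EKO against 6.23, 7.00 and 5.21 FPKM in DKO on chow. Its log2 fold changes were 4.78 (SE 0.23, limma adjusted p = 1.0e-11) and 5.22 (SE 0.21, adjusted p = 3.6e-13). Rpl7a was at 467 and 501 FPKM in EKO against 26.6, 23.7 and 23.1 FPKM in DKO on WD, and at 539, 501 and 485 FPKM in EKO against 28.3, 26.7 and 27.9 FPKM in DKO on chow. That is a log2 fold change of 4.25 (SE 0.12, limma adjusted p = 8.0e-16) on WD and 4.15 (SE 0.10, adjusted p = 2.2e-16) on chow. Rpl17, a protein at the tunnel exit, was at 449.9 and 382 FPKM in EKO against 35.6, 42.0 and 35.1 FPKM in DKO on WD, and at 391, 391 and 344 FPKM in EKO against 37.8, 42.0 and 36.5 FPKM in DKO on chow, with 3.43 (SE 0.12, limma adjusted p = 8.9e-14) and 3.24 (SE 0.11, adjusted p = 3.2e-14).

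Among the genes with a value in every library, Rps12 differed most. It was at 1009, 839.5 and 934 FPKM in EKO against 139, 159.5 and 141 FPKM in DKO on WD, and at 1078, 1085 and 864 FPKM in EKO against 132, 140.0 and 121 FPKM in DKO on chow. The partial library stood with the other 2 of its group, and the log2 fold changes were 2.65 (SE 0.14, limma adjusted p = 9.2e-12) and 2.93 (SE 0.14, adjusted p = 1.5e-12). Rpl23a, which lies at the tunnel exit, was at 568, 496 and 599 FPKM in EKO against 119, 138 and 115 FPKM in DKO on WD. Its log2 fold changes were 2.15 (SE 0.11, limma adjusted p = 1.5e-11) on WD and 2.41 (SE 0.11, adjusted p = 2.2e-12) on chow. Rpl38, known in mice for skeletal patterning defects when mutated, had 1.5 (SE 0.15, limma adjusted p = 4.6e-07) and 2.13 (SE 0.15, adjusted p = 1.8e-09).

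At the other end, some genes showed no called difference at 22 weeks. Rpl22, which also binds viral RNA and has a role in T cell development, was at 50.4 and 46.8 FPKM in EKO against 39.1, 47.7 and 45.7 FPKM in DKO on WD, with 0.14 (SE 0.11, limma adjusted p = 0.44) and 0.19 (SE 0.10, adjusted p = 0.29). Others passed on a single diet. Rpl8 had 0.23 (SE 0.15, limma adjusted p = 0.33) on WD and 0.57 (SE 0.15, adjusted p = 0.022) on chow. Rps29 had 0.45 (SE 0.18, limma adjusted p = 0.078) on WD and 0.87 (SE 0.18, adjusted p = 0.0027) on chow. Rpl4 had 0.63 (SE 0.16, limma adjusted p = 0.0089) on WD and 0.43 (SE 0.15, adjusted p = 0.081) on chow. Whether the diets differ for these genes was not tested. Rpl15 passed on both, with 0.67 (SE 0.11, limma adjusted p = 1.6e-04) and 0.74 (SE 0.11, adjusted p = 9.3e-05), as did Rpl32, with 1.08 (SE 0.17, limma adjusted p = 1.2e-04) and 1.01 (SE 0.15, adjusted p = 1.3e-04).

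The lowest levels in the family belonged to genes that have a nearly identical copy listed at a higher level. Rps27 averaged 3.27 FPKM, Rpl26 11.4 FPKM, Rps15a 11.7 FPKM and Rpl30 18.1 FPKM over the libraries with a value. By sequence, 11 other tested genes of the table had at least 20% of their own 50-base stretches (the read length) within the transcript of one of 10 members. Rplp2-ps1 was added to these by its name alone, since the annotation used here does not list that symbol, which makes 12 near-copies.

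Rpl34 was the 1 member called lower. It was at 13.0 and 6.21 FPKM in EKO against 180.4, 254 and 239 FPKM in DKO on WD at 22 weeks, and at 16.2, 8.90 and 6.27 FPKM in EKO against 234, 247 and 225 FPKM in DKO on chow. In EKO at 6 weeks Rpl34 was at 229 to 333 FPKM. The log2 fold changes of Rpl34 were -4.47 (SE 0.29, limma adjusted p = 9.0e-10) on WD and -4.46 (SE 0.26, adjusted p = 1.5e-10) on chow. Rpl34-ps1 did the opposite. It was at 727 and 669.8 FPKM in EKO against 31.7, 0 and 0 FPKM in DKO on WD, and at 765, 733 and 646 FPKM in EKO against 7.07, 0 and 0 FPKM in DKO on chow. Gene and copy together came in EKO to 708 ± 45.2 FPKM (SD, n = 2) on WD and 725 ± 66.1 FPKM (SD, n = 3) on chow. In DKO they came to 235 ± 21.1 FPKM (SD, n = 3) on WD and 238 ± 11.4 FPKM (SD, n = 3) on chow. The sum was higher in EKO, with log2 fold changes of 1.59 (SE 0.17, limma adjusted p = 1.4e-06) and 1.6 (SE 0.15, adjusted p = 2.7e-07), so the direction for Rpl34 alone turned round once its copy was added. Over the 351 coding bases the gene and its copy differ at 2, and their longest identical run is 185 bases. The stretch below covers coding bases 34 to 133 of Rpl34 (mm10 chr3:130726831-130730398, minus strand, 5 exons) and the matching part of Rpl34-ps1 (chr6:71124610-71124963, plus strand, a processed pseudogene in GENCODE M21). It is shown because a 50-base read that misses the single base in capitals, where the 2 differ, fits both places.
Rpl34: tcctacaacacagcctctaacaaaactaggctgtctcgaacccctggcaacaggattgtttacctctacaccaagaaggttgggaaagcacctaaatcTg
Rpl34-ps1: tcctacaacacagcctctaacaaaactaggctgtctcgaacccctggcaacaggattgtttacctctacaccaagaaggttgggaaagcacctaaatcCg

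Rpl31 moved with its copy in another pattern, which followed diet. In DKO at 22 weeks Rpl31 was at 41.2, 54.3 and 45.4 FPKM on WD and at 108, 118 and 99.4 FPKM on chow. In EKO at 6 weeks it was at 60.1, 39.4 and 48.5 FPKM on WD and at 103, 112 and 118 FPKM on chow, and the diets did not overlap in either genotype. The log2 fold change of WD against chow was -1.19 (SE 0.14, limma adjusted p = 2.0e-04) in DKO at 22 weeks, -1.17 (SE 0.14, adjusted p = 1.1e-04) in EKO at 6 weeks and -1.16 (SE 0.13, adjusted p = 6.4e-05) in DKO at 6 weeks. On WD, Rpl31-ps12 averaged 416 ± 44.0 FPKM (SD, n = 3) in DKO at 22 weeks, 502 ± 88.5 FPKM (SD, n = 3) in EKO at 6 weeks and 413 ± 24.6 FPKM (SD, n = 3) in DKO at 6 weeks. On chow it was listed at 0 in 9 of the 10 libraries of those groups and at 0.204 FPKM in the other. In EKO at 22 weeks the order was reversed, with 0 and 0.307 FPKM of Rpl31-ps12 on WD and 105, 128 and 109 FPKM on chow. Rpl31 itself was then at 279, 249 and 295 FPKM on WD and at 233, 261 and 241 FPKM on chow. Against DKO, Rpl31 alone was higher in EKO by 2.53 (SE 0.14, limma adjusted p = 4.3e-11) on WD and 1.17 (SE 0.14, adjusted p = 6.2e-06) on chow. With the FPKM of its copy added, the log2 fold change was -0.68 (SE 0.16, limma adjusted p = 0.0035) on WD, so the direction of this sum turned round. On chow the sum had 1.72 (SE 0.14, adjusted p = 3.1e-08). The same addition turned the log2 fold change of WD against chow to 2.08 in DKO at 22 weeks, 2.29 in EKO at 6 weeks and 2.01 in DKO at 6 weeks. FPKM is divided by transcript length, which was 1049 bases for Rpl31 and 375 for Rpl31-ps12 in the annotation used here. By these lengths a read would count for more in the copy than in the gene. The lengths behind the deposited FPKM are not given in the sources used here. Whether summed reads would give these directions was not tested. The coding sequences differ at 4 of 375 bases, and the longest identical run is 240 bases. Coding bases 25 to 124 of Rpl31 (mm10 chr1:39367842-39371911, plus strand, 5 exons) and of Rpl31-ps12 (chr16:16819749-16820123, minus strand) are shown because 3 of those 4 differences, in capitals, fall there.
Rpl31: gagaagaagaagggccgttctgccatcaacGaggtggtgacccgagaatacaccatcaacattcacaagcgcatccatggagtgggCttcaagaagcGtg
Rpl31-ps12: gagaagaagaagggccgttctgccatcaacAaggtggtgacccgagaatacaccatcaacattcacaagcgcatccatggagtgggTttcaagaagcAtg

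Rps27, Rpl30 and Rpl26 were low in every library, and their copies were listed far higher. Rps27 was at 2.83 and 2.89 FPKM in EKO against 2.66, 3.35 and 3.62 FPKM in DKO on WD at 22 weeks, with overlap. Gm9846, whose sequence holds the whole Rps27 coding sequence without a difference (252 bases), was at 1022 and 746 FPKM in EKO against 217, 305 and 269 FPKM in DKO. The log2 fold changes of Rps27 were -0.12 (SE 0.18, limma adjusted p = 0.70) on WD and 0.37 (SE 0.16, adjusted p = 0.18) on chow alone, and 1.73 (SE 0.21, limma adjusted p = 6.5e-06) and 1.91 (SE 0.19, adjusted p = 4.3e-07) with Gm9846 added. Rpl30 was at 11.46, 20.3 and 20.4 FPKM in EKO against 21.8, 20.3 and 17.2 FPKM in DKO on WD, with -0.21 (SE 0.23, limma adjusted p = 0.58) on WD and -0.09 (SE 0.23, adjusted p = 0.87) on chow. Gm12191, which differs from Rpl30 at 1 of 345 coding bases, was at 799, 641 and 672 FPKM in EKO against 228, 275 and 295 FPKM in DKO. The sum of Rpl30 and Gm12191 had log2 fold changes of 1.33 (SE 0.13, limma adjusted p = 3.1e-07) and 1.38 (SE 0.13, adjusted p = 1.8e-07). Rpl26 was at 17.5, 16.4 and 23.0 FPKM in EKO against 7.13, 3.39 and 7.26 FPKM in DKO on WD, with 1.57 (SE 0.49, limma adjusted p = 0.027) on WD and 1.8 (SE 0.49, adjusted p = 0.027) on chow. The call of Rpl26 on WD was lost without EKO WD 22 weeks replicate 1 (limma adjusted p = 0.062), EKO WD 22 weeks replicate 3 (0.10) or DKO WD 22 weeks replicate 2 (0.10). Its copy Gm15772, with 2 differences over 435 bases, was at 861, 647 and 818 FPKM in EKO against 358, 439 and 362 FPKM in DKO on WD. The first 100 coding bases of Rpl30 (mm10 chr15:34440505-34443640, minus strand, 4 exons) and of Gm12191 (chr11:49678710-49679057, minus strand) are shown because they hold the 1 coding base, in capitals, at which the 2 differ.
Rpl30: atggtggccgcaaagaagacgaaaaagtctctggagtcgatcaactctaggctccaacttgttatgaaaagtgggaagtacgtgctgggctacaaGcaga
Gm12191: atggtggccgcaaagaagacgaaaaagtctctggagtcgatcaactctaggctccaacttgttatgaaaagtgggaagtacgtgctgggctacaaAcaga

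Rps15a and Rplp2 showed the reverse arrangement, in which a copy fell. Rps15a was at 37.4 and 29.5 FPKM in EKO against 6.53, 6.96 and 5.93 FPKM in DKO on WD at 22 weeks, with log2 fold changes of 2.2 (SE 0.12, limma adjusted p = 7.7e-11) on WD and 2.07 (SE 0.11, adjusted p = 3.4e-11) on chow. Rps15a-ps4 was at 18.8 and 17.5 FPKM in EKO against 98.5, 102 and 98.3 FPKM in DKO on WD, a log2 fold change of -2.39 (SE 0.09, limma adjusted p = 2.1e-13). Rps15a-ps6, a second copy, was at 55.2, 37.4 and 47.8 FPKM in EKO against 52.2, 52.6 and 49.1 FPKM in DKO on WD, and its log2 fold change of -0.15 (SE 0.12, limma adjusted p = 0.42) was not called. The summed FPKM of Rps15a and both copies was lower in EKO, with -0.61 (SE 0.11, limma adjusted p = 4.0e-04) on WD and -0.73 (SE 0.10, adjusted p = 2.5e-05) on chow. FPKM is divided by transcript length, which was 5179 bases for Rps15a, 392 for Rps15a-ps4 and 393 for Rps15a-ps6 in the annotation used here. By these lengths a read would count for far more in a copy than in the gene. The lengths behind the deposited FPKM are not given in the sources used here. Whether the summed reads would also be lower in EKO was not tested. Rplp2-ps1 was at 5.11, 5.18 and 4.60 FPKM in EKO against 257, 256 and 285 FPKM in DKO on WD, a log2 fold change of -5.48 (SE 0.12, limma adjusted p = 1.0e-17). Summed, Rplp2 and Rplp2-ps1 averaged 765 ± 61.9 FPKM in EKO (SD, n = 2) and 392 ± 26.9 FPKM in DKO (SD, n = 3) on WD, and 1348 ± 228 FPKM in EKO and 356 ± 17.1 FPKM in DKO on chow (SD, n = 3 each). The ratio of these means was 1.95 on WD and 3.79 on chow, against 6.04 and 10.8 for Rplp2 alone, and no test was made of this sum because Rplp2-ps1 was matched by name only. Coding bases 286 to 385 of Rps15a (mm10 chr7:118104372-118116188, minus strand, 5 exons) and of Rps15a-ps4 (chr4:132219988-132220489, minus strand) are shown because they hold 5 of the 9 differences, in capitals, over 390 bases.
Rps15a: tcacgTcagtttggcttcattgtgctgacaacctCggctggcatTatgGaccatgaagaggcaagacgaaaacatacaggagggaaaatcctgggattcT
Rps15a-ps4: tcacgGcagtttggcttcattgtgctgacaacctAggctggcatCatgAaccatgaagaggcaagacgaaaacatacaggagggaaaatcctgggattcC

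**Figure D4:**
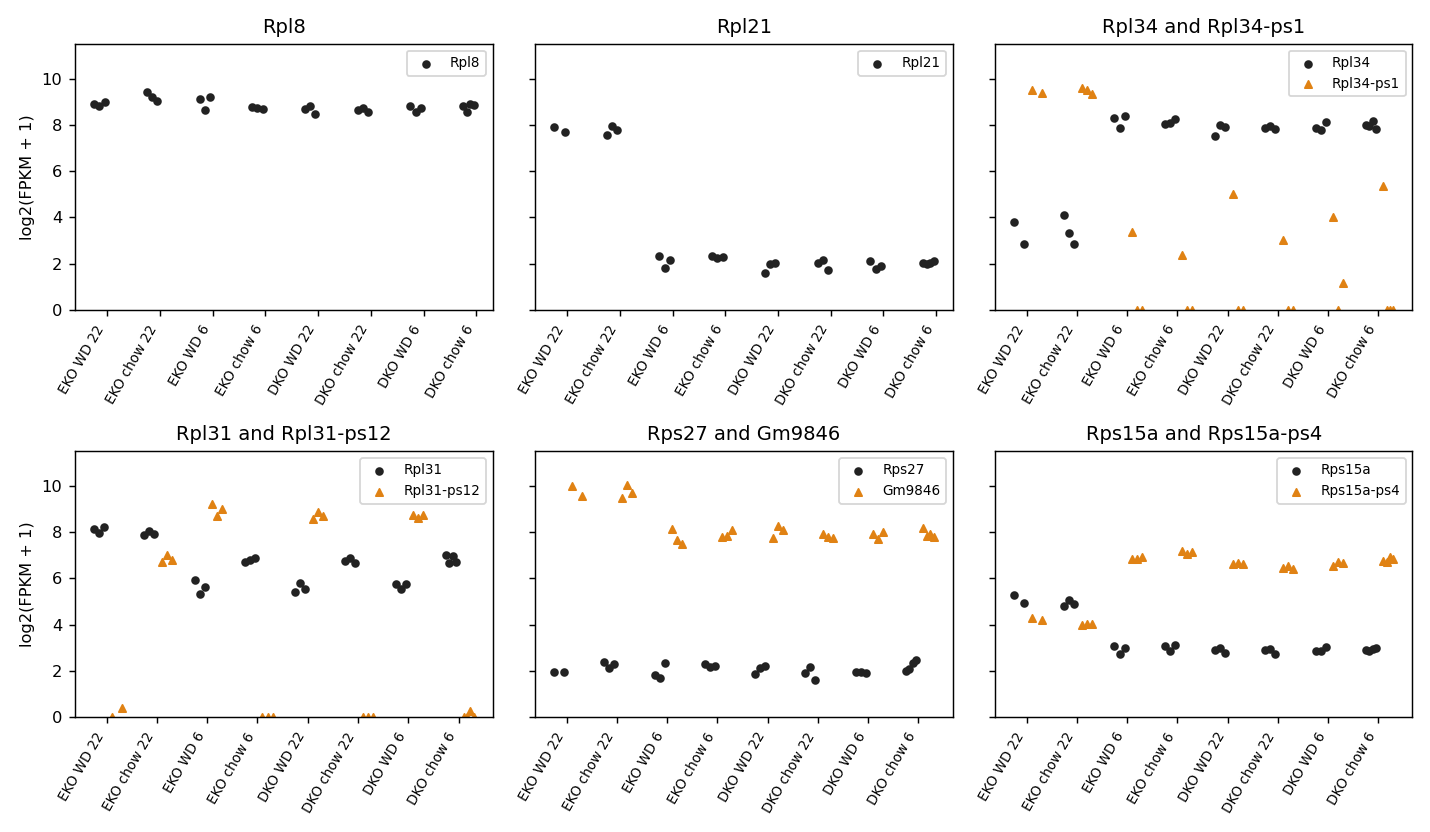
Level of single members (black circles) and of their near-copies (orange triangles) in each library, as log2(FPKM + 1) (y axis) by group (x axis). Rpl34 is at 6.21 to 16.2 FPKM in EKO at 22 weeks while Rpl34-ps1 is at 646 to 765 FPKM there, and Rpl31-ps12 changes between diets.

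Taken over the 12 near-copies, 4 were called higher and 7 lower in EKO than in DKO on WD at 22 weeks, and 5 higher and 6 lower on chow, while none was called at 6 weeks on either diet. Of the 6 with a ribosomal protein stem and a -ps suffix, 1 was higher and 4 were lower on WD, and 2 were higher and 3 lower on chow. Over all 106 tested pseudogenes, 23 were higher and 40 lower on WD, and 18 were higher and 42 lower on chow. Beside these counts, 18.6% of all tested genes were called higher and 2.93% lower on WD, and 6.42% and 1.45% on chow. Adding the 11 near-copies found by sequence to their members before the fit left 67 members higher and 2 lower on WD and 71 higher and 1 lower on chow, with medians of 1.01 and 1.12. It altered 10 of the 77 members, so most values behind these counts were the same as before. The sums add FPKM of transcripts that are of unlike length in the annotation used here, and a read counts for more in a shorter transcript. The lengths behind the deposited FPKM are not known. Whether summed reads would give the same calls was not tested. The genes named next were chosen after their values were seen. Rps24, a small subunit protein, had log2 fold changes of 1.25 (limma adjusted p = 3.3e-06) on WD and 1.42 (adjusted p = 6.3e-07) on chow by itself. With the FPKM of its copy added it had 0.23 (limma adjusted p = 0.33) and 0.34 (adjusted p = 0.14), so this sum was not called on either diet. That copy, Gm9320, holds 22.0% of the 50-base coding stretches of Rps24. The transcripts were taken as 443 bases for Gm9320 and 1613 bases for Rps24. Rps19, also of the small subunit, was no longer called on WD, with 0.28 (limma adjusted p = 0.29) against 0.71 (adjusted p = 0.0071) by itself. Rpl34, Rps27 and Rpl30 became called higher with their copies, while Rps15a became lower on both diets and Rpl31 lower on WD.

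Sharing was then set beside the differences for all 77 genes. A median of 93.0% of a member's 50-base coding stretches also occurred in another annotated transcript, and 30 members had no unshared stretch at all. The 6 members that share a stretch with 0 or 1 other gene had median log2 fold changes of 0.50 on WD and 0.52 on chow, and 4 of the 6 were called higher on each diet. The 37 members that share with 2 to 10 other genes had medians of 1.08 and 1.19, and the 29 that share with 11 to 50 had 1.01 and 1.10. The 5 that share with more than 50 (Rpl17, Rpl21, Rpl29, Rpl7a and Rps2) had 4.25 and 4.15. Rpl7a shared a stretch with 123 other genes, Rpl29 with 84 and Rpl21 with 82, nearly all of them pseudogenes. By the share of stretches, the 10 members with under 50% had medians of 0.57 on WD and 0.57 on chow, the 37 with 50% or more but not all had 1.04 and 1.19, and the 30 with all stretches shared had 1.07 and 1.15. Across the 77 genes, which share libraries and are not replicates, Spearman's rho between the number of sharing genes and the log2 fold change was 0.36 on WD and 0.22 on chow. How reads that fit several places were assigned is not given in the sources used here, and the part of read sharing in the EKO difference at 22 weeks was not tested.

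**Figure D5:**
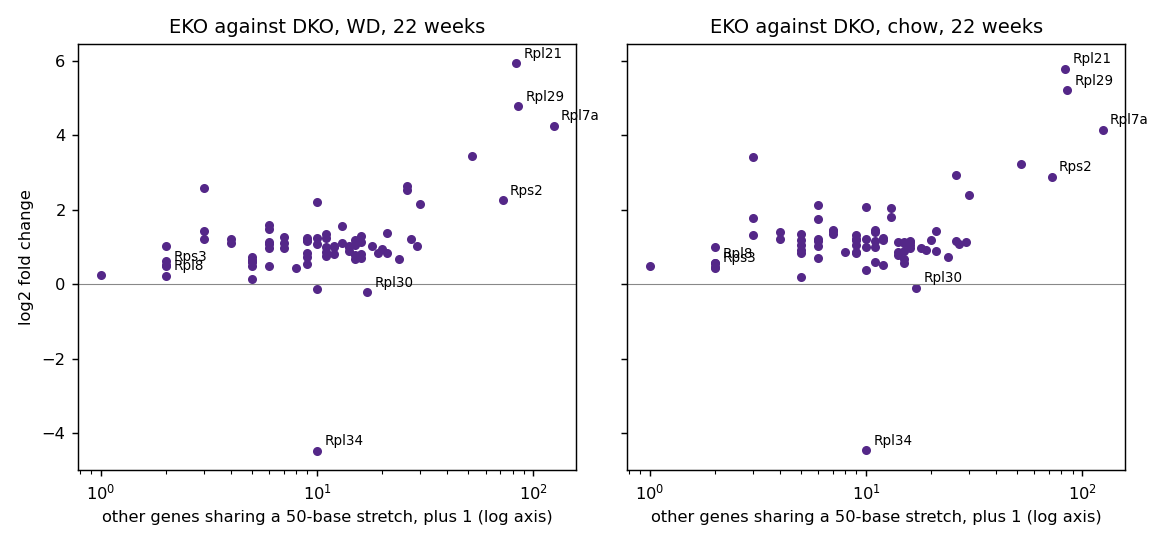
Log2 fold change of EKO against DKO at 22 weeks for each of the 77 genes (y axis) against the number of other genes that share at least 1 of its 50-base coding stretches (x axis, plus 1, log axis), on WD and on chow. The 5 genes that share with more than 50 others have median log2 fold changes of 4.25 on WD and 4.15 on chow, against 0.50 and 0.52 for the 6 that share with at most 1.

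Rpl29 and Rpl35 were the 2 genes called between genotypes at 6 weeks. Rpl29 was at 21.6, 14.9 and 20.2 FPKM in EKO against 7.48, 4.21 and 6.20 FPKM in DKO on WD, a log2 fold change of 1.53 (SE 0.21, limma adjusted p = 0.0014). On chow Rpl29 was at 16.9, 14.6 and 16.5 FPKM in EKO against 7.98, 6.09, 6.45 and 5.34 FPKM in DKO, a log2 fold change of 1.2 (SE 0.19, limma adjusted p = 0.0088), and this call was lost without EKO chow 6 weeks replicate 3 (adjusted p = 0.080). Rpl35 was nearly absent in a single group. It was at 1.15, 1.05 and 2.03 FPKM in EKO on chow at 6 weeks against 261, 239, 232 and 254 FPKM in DKO, a log2 fold change of -6.7 (SE 0.16, limma adjusted p = 1.1e-15). On WD at 6 weeks it was at 309, 199 and 275 FPKM in EKO, and at 22 weeks at 552 and 481 FPKM on WD and 579, 553 and 479 FPKM on chow in EKO.

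Ribosomal protein transcripts are short, and transcript length moved with the genotype difference on chow. The members had a median length of 830 bases and the other tested genes of 2873 bases, and 31 of the 77 were under 750 bases. On chow at 22 weeks the other protein-coding genes had median log2 fold changes of 0.39 under 500 bases, 0.48 from 500 to under 750 bases and -0.01 in the longest class of 5682 genes, while the members had 1.18 and 1.22 in the 2 shortest classes. On WD the other protein-coding genes had -0.04 and 0.04 in those classes and 0.08 in the longest, and the members had 0.91 and 1.09. With the trend over length removed from each library, 63 members were called higher on WD and 55 on chow, with medians of 0.92 and 0.81. Of all 12636 genes in that fit, 1709 were called higher on WD and 409 on chow. The 22 against 6 weeks comparison in EKO then had 60 higher on WD and 49 on chow (medians 0.86 and 0.59). Of the 12636 genes, 1752 were higher in it on WD and 1876 on chow.

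The start of the annotated transcript was read for the TOP tract, written as a C at the start followed by at least 4 bases of C or T, on the sense strand. It was present in 13 of the 56 members with a RefSeq promoter (23.2%), against 3.01% of 27025 genes with one. Members with it had median log2 fold changes of 1.01 on WD and 1.35 on chow, and the 43 without it 1.01 and 1.13. The annotated start can lie some bases from the true one, and a start that does not match says only that these letters are not there. The 5 starts below run from 10 bases before to 15 from the annotated start (RefSeq, GRCm38.p6), with the tract in capitals, and come from members that span the range of the differences, from Rps27 with none called to Rplp2 with the largest of the 13 on chow. They were read from the promoter windows chr3:90213599-90213898 (minus strand) for Rps27, chr4:86857318-86857617 (minus) for Rps6, chr14:18270937-18271236 (minus) for Rpl15, chr7:118116098-118116397 (minus) for Rps15a and chr7:141447401-141447700 (plus) for Rplp2.
Rps27: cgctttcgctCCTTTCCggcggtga
Rps6: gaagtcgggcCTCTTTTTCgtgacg
Rpl15: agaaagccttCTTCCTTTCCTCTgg
Rps15a: tttctgccatCTTCCCTCgccggtg
Rplp2: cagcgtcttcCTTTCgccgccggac

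Other genes of translation were counted in the same comparison, in which 18.6% of all genes were called higher on WD and 6.42% on chow. Among 19 elongation factors and other TOP mRNAs, 13 were called higher in EKO than in DKO on WD at 22 weeks and 10 on chow, with none lower (medians 0.53 and 0.51). Eef1a1, which brings aminoacyl-tRNA to the ribosome, had log2 fold changes of 0.79 (SE 0.15, limma adjusted p = 5.6e-04) and 0.51 (SE 0.13, adjusted p = 0.017). Tpt1, a TOP mRNA for a growth-related protein, had 0.56 (SE 0.13, limma adjusted p = 0.0030) and 0.81 (SE 0.13, adjusted p = 1.6e-04). Of 24 initiation factors, 10 were higher on WD and 8 on chow, with none lower (medians 0.31 and 0.28). Eif4a1, the helicase that unwinds 5′ leaders, had 1.3 (SE 0.11, limma adjusted p = 3.9e-08) and 0.81 (SE 0.11, adjusted p = 2.9e-05). Of 5 ribosomal protein paralogs, 4 were higher on each diet (medians 0.58 and 0.70). Fau, whose product is cut to give the small subunit protein eS30, had 1.23 (SE 0.18, limma adjusted p = 5.6e-05) and 1.45 (SE 0.16, adjusted p = 2.8e-06).

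The genes that build ribosomes were counted in the same way. Of 72 ribosome assembly genes, 18 were higher and none lower on WD, and 12 were higher and 1 lower on chow (medians 0.21 and 0.11), beside 18.6% and 6.42% of all genes called higher. Npm1, a nucleolar chaperone, was among them with 0.82 (SE 0.11, limma adjusted p = 1.8e-05) and 0.42 (SE 0.11, adjusted p = 0.020). Of 15 genes of RNA polymerase I and its factors, 1 was higher on each diet, and of 14 regulators of ribosome production, 2 were. Of 8 snoRNA host genes without a ribosomal protein, 1 was higher on WD and none on chow. Of 78 small nucleolar RNA genes, 14 were higher and none lower on WD, and 8 were higher and 7 lower on chow. The 76 mitochondrial ribosomal protein genes serve the separate ribosome of mitochondria. On WD 7 were higher and 2 lower in EKO than in DKO at 22 weeks, with a median of -0.07. On chow 21 were higher and none lower, with a median of 0.44. With time in EKO, 70 of the 76 were called higher on chow (25.5% of all genes, median 0.91). On WD 3 were higher and 1 lower with time (14.8% and 4.45% of all genes, median -0.14).

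Markers of some cell types also differed between the genotypes at 22 weeks, and not the same ones on the 2 diets. Of all genes, 18.6% were called higher and 2.93% lower in EKO than in DKO on WD at 22 weeks, and 6.42% and 1.45% on chow. The 7 macrophage markers summed to 1360 to 1532 FPKM in EKO on WD at 22 weeks against 161 to 297 FPKM in DKO, and 6 of 7 were called higher. On chow they summed to 162 to 273 FPKM in EKO against 65.7 to 179 FPKM in DKO, and 1 of 7 was called higher. The erythroid markers summed to 10995 to 24513 FPKM in EKO on chow at 22 weeks against 1727 to 5302 FPKM in DKO, and all 5 tested were called higher. On WD the erythroid sums overlapped, at 8488 to 14380 FPKM in EKO against 1963 to 15366 FPKM in DKO, with none of 5 called. The 6 smooth muscle markers summed to 3349 to 3498 FPKM in EKO against 942 to 3457 FPKM in DKO on WD and to 3909 to 5565 FPKM against 5103 to 7573 FPKM on chow, with none called on either diet. Among 5 endothelial markers 1 was called lower on WD and none on chow, among 6 adipocyte markers 1 was called higher on chow and none on WD, and none of 8 T and B cell or 6 skeletal muscle markers was called. With time in EKO, 5 of 6 smooth muscle markers were called lower on chow and 3 on WD, and 4 of 7 macrophage markers were called higher on chow and all 7 on WD. Of all genes, 25.5% were called higher and 11.2% lower with time in EKO on chow, and 14.8% and 4.45% on WD. The erythroid sums in EKO were 10995 to 24513 FPKM at 22 weeks against 4812 to 5743 FPKM at 6 weeks on chow (2 of 5 called higher), and 8488 to 14380 FPKM against 4788 to 7697 FPKM on WD (none called). The adipocyte sums in EKO were 3669.7 to 5849 FPKM at 22 weeks against 1088 to 1593 FPKM at 6 weeks on chow (6 of 6 called higher), and 1093 to 2354 FPKM against 2052 to 5153 FPKM on WD (none called). The median log2 fold change of the ribosomal protein genes at 22 weeks was 1.01 on WD and 1.13 on chow. The part of cell makeup in the ribosomal protein difference was not tested.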

How the data were processed

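RNA of 25 whole mouse aortas was sequenced on an Illumina Genome Analyzer IIx as unpaired 50 nt reads. Libraries were run 8 or 9 to a flowcell lane, and which ran together is not stated. The authors deposited FPKM, computed by Cufflinks from reads mapped to mm10. The tools listed in the submitters' notes are Cuffdiff, SAMtools 0.1.19, TopHat 1.3.2 and Bowtie 0.12.8. The Cufflinks version, its gene models, the treatment of reads with several matches and the use of strand are not given in the sources used here. FPKM do not keep read counts, so the depth of each library and the precision it gives are unknown and no count test was run. The table holds no columns of the authors' own comparisons.

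Zeros of EKO WD 22 weeks replicate 2 were treated as missing. On the scale log2(FPKM + 1), the 12797 genes averaging 1 FPKM or more were fitted with limma 3.58.1 in R 4.3.3, with 1 mean per group over all libraries and moderated variances (trend and robust estimation). Adjustment was by Benjamini-Hochberg over all genes in each of 14 comparisons (2 of them time by genotype interactions), and an adjusted p under 0.05 counted as called. Fold changes on this scale understate those of low genes. The fit was also run on simulated data with known changes, in which genes varied independently and carried no trend over length. Its outcome is not reported here.

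The members and lists were chosen with earlier results of these data known. Named genes were the 5 largest and the 5 smallest genotype differences at 22 weeks among members with a value in every library used (77 on chow, 22 on WD), members called lower in EKO, the 4 highest and 4 lowest means, the 6 with the least shared sequence, the 3 highest with a value in all 25 libraries, a list by role, and members called at 6 weeks or between diets. Of the other lists, some of the 3 genes highest by mean are named. Sequence sharing came from GENCODE M21 transcripts (GRCm38, the mm10 assembly), as the share of a member's 50-base coding stretches found in transcripts of other genes on either strand. Symbols matched the annotation for 20873 genes directly and 1909 through synonyms, and 502 did not match. The alternatives were other pseudocounts, no filter, rescaling by median ratios, zeros kept, the replicate number as a block, removal of the trend over transcript length, limma without trend and robust estimation, leaving out single libraries and, chosen after seeing the data, adding near-copies to their member. Results for some members and related genes are not reported here.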

Additional observations from a re-analysis of the deposited data

Results flagged for a closer look

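The change from 6 to 22 weeks differed between EKO and DKO, by a test of that difference in limma, for 55 of the 77 genes on WD and 63 on chow. With the trend over transcript length removed, it was called for 37 on WD and 33 on chow. Of all 12636 genes in that fit, 809 were then called higher and 183 lower on WD, and 200 and 108 on chow. As log2 differences (the change in EKO minus that in DKO), the named genes had these values on WD and on chow. Rpl21 had 5.76 and 5.54, Rpl7a had 4.08 and 4.04, Rpl17 had 3.32 and 3.04, and Rpl29 had 3.25 and 4.02. Rpl31 had 2.58 and 1.21, Rps12 had 2.55 and 3.06, Rplp2 had 2.37 and 3.53, and Rpl23a had 2.11 and 2.4. Rpl38 had 1.57 and 2.21, Rpl36 had 0.99 and 2.3, and Rpl35 had 0.92 and 7.89. Rpl34 was the 1 gene with a difference the other way, at -4.72 and -4.6. With the FPKM of their copies added, Rpl34 had 1.36 on WD and 1.51 on chow, and Rpl31 had -0.92 and 1.76. For Rpl35 on chow the size rests on the 3 EKO libraries of 6 weeks, in which it was at 1.05 to 2.03 FPKM.

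Among the 4 DKO chow libraries of 6 weeks, Rpl26 had 1 library at 17.1 FPKM and 3 at 8.87 to 10.3 FPKM, a gap of 0.831 of the group's range against a critical value of 0.829. Of 38 values examined in this way this was the 1 past its limit, where chance gives about 1 in 20.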

How the results depend on the processing

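In the partial library 8775 tested genes were at 0, and 8512 of these were above 0 in all 24 other libraries. Keeping those zeros ended most calls. The members called then numbered 14 on WD and 16 on chow for EKO against DKO at 22 weeks, 0 on WD and 0 on chow at 6 weeks, and 11 on WD and 16 on chow for 22 against 6 weeks in EKO. They numbered 0 for WD against chow in EKO at 22 and at 6 weeks and in DKO at 22 weeks, and 5 and 5 for the interactions. Those zeros also turned the median on WD to -1.69 in EKO against DKO at 22 weeks. Removing the trend over length gave 1 call for WD against chow in EKO at 22 weeks and 33 for the interaction on chow, and limma without trend and robust estimation gave 5 for that diet comparison. With near-copies added to their member, chosen after seeing the data, WD against chow called 1 gene in DKO at 22 weeks and 1 at 6 weeks, higher in place of lower. Rpl34 then had 1.59 on WD and 1.6 on chow for EKO against DKO at 22 weeks, and 1.28 and 1.37 for time in EKO. Rpl31 had -0.68 for EKO against DKO on WD at 22 weeks, and 2.08, 2.29 and 2.01 for WD against chow in DKO at 22 weeks, EKO at 6 weeks and DKO at 6 weeks. These sums add FPKM over transcript lengths that are unlike in the annotation used here, and a read counts for more in a shorter transcript. The lengths behind the deposited FPKM are not known. Beyond the construction of these alternatives, the cause was not tested.

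Leaving out single libraries gave 62 to 70 calls on WD and 65 to 73 on chow for EKO against DKO at 22 weeks, and 1 to 1 on WD and 1 to 2 on chow at 6 weeks. It gave 58 to 69 on WD and 67 to 70 on chow for time in EKO, 2 to 4 for diet in EKO at 22 weeks, and 41 to 59 and 57 to 65 for the interactions on WD and chow. Deviations of same-numbered libraries from their group means had a median r = 0.03 over 84 pairs (from -0.39 to 0.41), so the main fit did not pair them. Whether some of them shared a batch was not tested. With the replicate block 68 genes were called on WD and 71 on chow at 22 weeks, and 1 on chow at 6 weeks, where Rpl29 was lost (limma adjusted p = 0.061). Over 25 results for named genes and 850 alternatives, 821 kept direction and side of the threshold, 21 lost their call and 8 reversed.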
